A study of Mus musculus with 8 samples.

Results

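The 10 genes described here are transcription factors and a synaptic effector that neurons switch on within minutes of being activated: Egr1, Egr2, Egr3, Egr4, Nr4a1, Nr4a2, Nr4a3, Arc, Npas4 and Ier2. They were taken by symbol from the 24060 rows of the count table, where each of the 10 had a row. RNA was measured in whole cerebellum of 8 mice, 4 bigenic and 4 control. Bigenic mice carried the CalExflox allele, which encodes a plasma membrane calcium pump, and Aldh1l1-Cre/ERT2, a recombinase that tamoxifen activates, driven in astrocytes by regulatory sequence of Aldh1l1. Control mice carried CalExflox without Cre. All 8 mice received a single dose of tamoxifen at 75 mg/kg and were sampled 5 days later. Only bigenic mice carried Cre, so an effect of the pump and an effect of Cre cannot be told apart. Sex and age are not given in the sources used here.

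Egr proteins are zinc finger transcription factors, Nr4a proteins are nuclear receptors that need no ligand, and Npas4 is a basic helix-loop-helix factor that responds to calcium entry in neurons. Their genes belong to the immediate early class: kinases that calcium and cAMP activate act on factors already bound to the promoters, such as CREB and SRF, and transcription starts without new protein synthesis. The transcripts are short-lived, so their level reports recent events in the tissue. In the cerebellum they are known from granule and Purkinje cells, and Egr1 and Nr4a1 also respond in glia and vessels to growth factors and stress.

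The promoters of the Nr4a genes carry the sequence through which CREB acts, and are shown because these 3 genes moved together in the data that follow. Bases upstream of the RefSeq start site (GRCm38.p6) and outside annotated exons are printed 5′ to 3′ on the strand of the gene. Capitals mark the core of the cAMP response element, TGACG or its reverse complement CGTCA, and a match to the Egr binding site GCGNGGGCG on either strand.
Nr4a1, chr15:101266596-101266845, plus strand: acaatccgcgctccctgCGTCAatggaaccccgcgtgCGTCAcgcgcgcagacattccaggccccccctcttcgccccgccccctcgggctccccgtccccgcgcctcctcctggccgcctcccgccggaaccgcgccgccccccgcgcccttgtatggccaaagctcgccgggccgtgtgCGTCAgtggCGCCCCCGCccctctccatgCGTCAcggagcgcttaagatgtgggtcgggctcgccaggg
Nr4a2, chr2:57124004-57124253, minus strand: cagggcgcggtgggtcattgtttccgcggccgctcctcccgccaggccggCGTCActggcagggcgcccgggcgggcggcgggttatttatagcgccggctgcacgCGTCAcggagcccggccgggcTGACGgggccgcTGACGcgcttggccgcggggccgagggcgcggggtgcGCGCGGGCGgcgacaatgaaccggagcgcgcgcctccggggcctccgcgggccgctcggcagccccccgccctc
Nr4a3, chr4:48045055-48045152, plus strand: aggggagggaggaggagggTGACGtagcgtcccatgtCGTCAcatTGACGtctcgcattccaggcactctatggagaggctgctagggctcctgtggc

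In the full window of 300 bases, from 250 before to 50 after the start, each of these 3 genes held 4 copies of the core, a number that 0.255% of 27025 genes with such a window reached. Of the 10 genes, 6 were searched. Egr3, Arc and Ier2 had no window in the RefSeq table. Egr1 was left out because the search of members skipped chromosome 18, so nothing is said of its promoter. Npas4, Egr4 and 1 or more of the 5 starts of Egr2 held 2 copies, a number that 5.7% of genes reached, and 23% of genes held at least 1. The complete element TGACGTCA, present in 2.03% of genes, was in none of the 6. A match to GCGNGGGCG lay in the windows of Nr4a1 and Nr4a2, against 6.27% of genes. A CArG box, the SRF site, lay in 1 or more of the 5 windows of Egr2 but not in all, against 1.81% of genes. No window held the Nr4a site AAAGGTCA or the AP-1 site TGANTCA. These matches describe letters only and show no binding.

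Some control libraries stood apart in markers of other tissue. The choroid plexus transcript Ttr had 300.2, 2360, 2961 and 2.76 CPM (read counts scaled to the size of the library) in control mice 1 to 4, against 2.25 to 4.62 CPM in bigenic mice. Of 8 choroid plexus markers 7 were called lower, with a summed level of 159 to 228 CPM in bigenic and 290 to 4820 CPM in control libraries, and none was at 0 in every library, though Kcne2 had no reads in control library 4. Slc17a6, the glutamate transporter of midbrain and brainstem neurons, reached 110.4 CPM in control library 4 and between 10.2 and 21.8 CPM in the other 7. Called members are therefore also given without control libraries 2 and 3, the pair with the highest Ttr. That fit keeps control library 1, with Ttr at 300.2 CPM, and control library 4. Results without control library 4 are given for the Nr4a genes and Npas4, and for other named genes where the call was lost.

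The main pattern was a split within the group. Egr1 was higher in bigenic cerebellum, whereas Nr4a1, Nr4a2, Nr4a3, Npas4 and Arc were lower. Of the 8 genes with enough reads to be tested, 1 rose, 5 fell and 2 did not pass, and their median log2 fold change was -0.91. Over all 15186 genes tested, 44.3% passed (21.4% higher and 22.9% lower) and the median was -0.00414, so passing the test was common in this comparison. A gene is called higher or lower at an adjusted p under 0.05 by edgeR's quasi-likelihood test, and a positive log2 fold change means more RNA in bigenic mice. Over all genes 3249 rose and 3485 fell, and this split moved with the scaling, to 2423 and 4373 with library size alone and to 2641 and 4105 with upper-quartile factors. The split within the group did not depend on it: 1 higher and 5 lower under either.

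**Figure D1:**
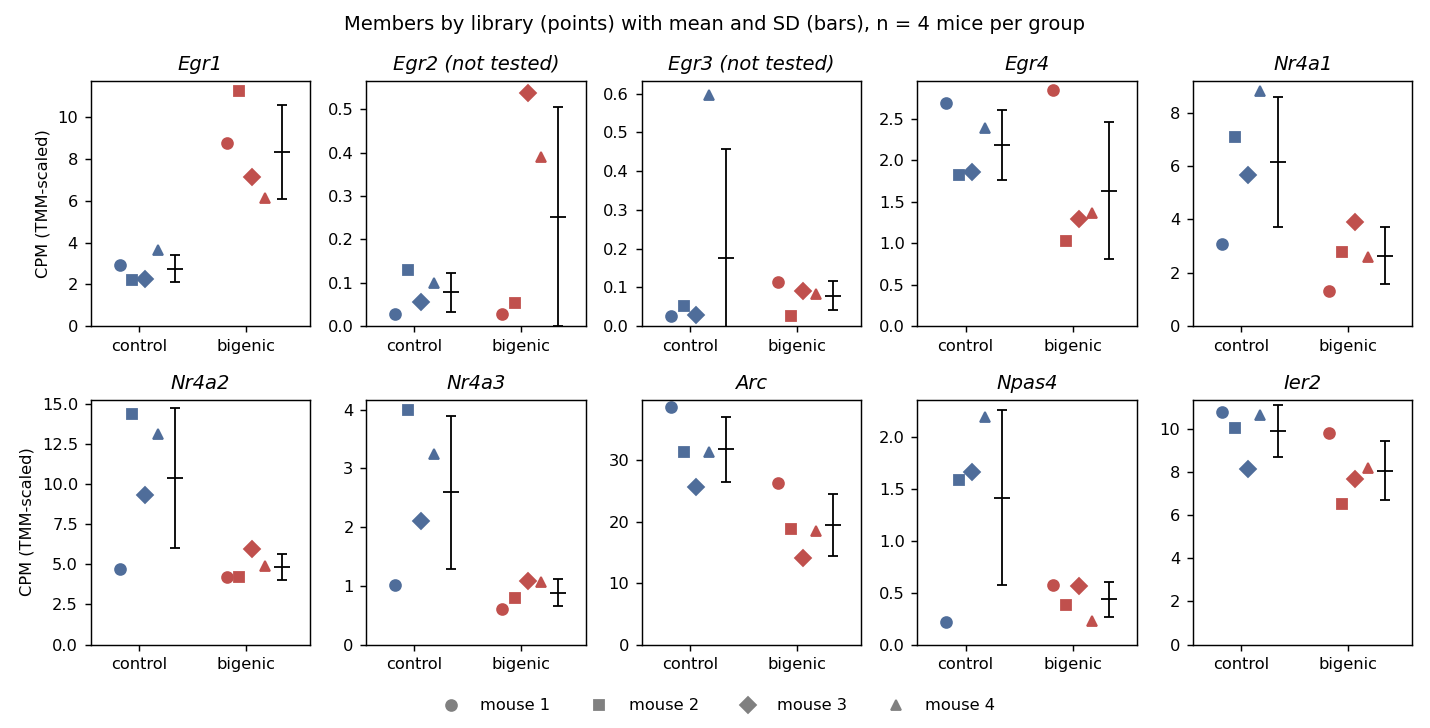
Each panel plots 1 gene in CPM (TMM-scaled, linear axis from 0) in the 4 control and 4 bigenic libraries, with mean and SD bars and a symbol for each mouse number. Only Egr1 has groups that do not overlap, and control mouse 1 lies at the bigenic level for Nr4a1, Nr4a2, Nr4a3 and Npas4.

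Egr1, a zinc finger factor widely used to mark activated neurons, was the only tested member that rose. Bigenic mice 1 to 4 had 8.79, 11.3, 7.15 and 6.15 CPM, and control mice 1 to 4 had 2.90, 2.20, 2.27 and 3.64 CPM. Every bigenic library lay above every control. The mean was 8.34 ± 2.24 CPM against 2.75 ± 0.667 CPM (SD, n = 4 per group), a 3.02-fold difference (fitted log2 difference 1.597 ± 0.22, SE; adjusted p = 0.000211). Of the 8 tested members Egr1 alone had groups that did not overlap, against 40.7% of all genes tested (19.4% with bigenic above and 21.4% with bigenic below). Its call held in each of 18 alternative analyses, with an adjusted p of at most 0.0221.

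Egr4 was not called in either direction. Egr4, another zinc finger factor of the family (GRCm38 chromosome 6, 85511121 to 85513589, minus strand), had 2.85, 1.03, 1.29 and 1.36 CPM in bigenic mice 1 to 4. Control mice 1 to 4 had 2.69, 1.82, 1.86 and 2.39 CPM. Bigenic library 1 held the highest value of all 8, and the other 3 bigenic libraries lay below every control. The log2 fold change of -0.42 ± 0.30 (SE) did not pass (adjusted p = 0.271). Without bigenic library 1 it was -0.83 (adjusted p = 0.0162).

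Egr2, known for its part in myelination by Schwann cells and in hindbrain patterning, and Egr3, a target of synaptic activity and of growth factors, had few reads and were left out by the filter on low counts. Egr2 had 1, 2, 18 and 14 reads in bigenic libraries 1 to 4 and 1, 5, 2 and 4 in control libraries 1 to 4. Egr3 had 4, 1, 3 and 3 reads in bigenic libraries and 1, 2, 1 and 24 in controls. Bigenic libraries 3 and 4 thus held most Egr2 reads, and control library 4 most Egr3 reads. Fitted without the filter, Egr2 differed by 1.61 ± 0.78 on the log2 scale (SE; adjusted p = 0.143) and Egr3 by -1.19 ± 0.94 (SE; adjusted p = 0.39), neither detectable as a difference at this depth.

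The 3 Nr4a genes fell together. Nr4a1, also called Nur77, an early responder to calcium, cAMP and growth factors (chromosome 15, 101254269 to 101274795, plus strand), had 1.31, 2.76, 3.92 and 2.59 CPM in bigenic mice 1 to 4. Control mice 1 to 4 had 3.06, 7.08, 5.65 and 8.82 CPM. Control libraries 2, 3 and 4 lay above every bigenic library, and control library 1 lay among them. The means of 2.64 ± 1.07 and 6.15 ± 2.43 CPM (SD, n = 4 per group) differed by 2.33-fold (fitted log2 difference -1.22 ± 0.34, SE; adjusted p = 0.0135).

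Nr4a2, or Nurr1, which also maintains midbrain dopamine neurons (chromosome 2, 57106830 to 57124003, minus strand), had 4.22, 4.22, 5.98 and 4.90 CPM in bigenic mice 1 to 4. The controls had 4.73, 14.4, 9.31 and 13.1 CPM. As for Nr4a1, control libraries 2, 3 and 4 lay above every bigenic library and control library 1 was within the bigenic range. Its fitted log2 difference was -1.11 ± 0.29 (SE; adjusted p = 0.00914), or 2.15-fold lower.

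Nr4a3, or Nor1, the third receptor of the family (chromosome 4, 48045153 to 48086447, plus strand), had 0.599, 0.784, 1.08 and 1.06 CPM in bigenic mice 1 to 4. Control mice 1 to 4 had 1.02, 4.00, 2.11 and 3.24 CPM. It fell by 1.56 ± 0.38 on the log2 scale (SE; adjusted p = 0.00645), a 2.95-fold difference, again with control library 1 at the bigenic level. With control library 1 left out, the log2 fold changes of Nr4a1, Nr4a2 and Nr4a3 were -1.44, -1.35 and -1.82 (adjusted p = 0.00338, 0.000366 and 0.000725).

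Npas4, which calcium entry induces in neurons and which regulates inhibitory synapses (chromosome 19, 4984355 to 4990316, minus strand), was also higher in control libraries 2, 3 and 4 than in every bigenic library, at a lower level. Bigenic mice 1 to 4 had 0.571, 0.379, 0.569 and 0.223 CPM, from 8 to 20 reads. Control mice 2, 3 and 4 had 1.59, 1.66 and 2.19 CPM, and control library 1, with 8 reads, was the lowest of the 8 at 0.215 CPM. The fitted log2 difference was -1.70 ± 0.55 (SE; adjusted p = 0.0255). The call was lost without bigenic library 2 (adjusted p = 0.0569) or 4 (0.0688), and without control library 2 (0.0576), 3 (0.0553) or 4 (0.0669), and without control library 1 the value was -2.06 (adjusted p = 0.000717).

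Arc, which encodes a protein of excitatory synapses that promotes removal of AMPA receptors (chromosome 15, 74669083 to 74672570, minus strand), fell by less. Bigenic mice 1 to 4 had 26.2, 18.9, 14.03 and 18.5 CPM, and control mice 1 to 4 had 38.6, 31.3, 25.7 and 31.3 CPM. The groups overlapped by 1 library on each side, since bigenic library 1 was just above control library 3. Its fitted log2 difference was -0.71 ± 0.175 (SE; adjusted p = 0.0072), or 1.63-fold lower. Control library 1, at the bigenic level for the Nr4a genes, held the highest Arc value of the 8 libraries.

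Ier2, a nuclear protein gene induced by growth factors and depolarisation (chromosome 8, 84661331 to 84662852, minus strand), had 9.81, 6.52, 7.69 and 8.21 CPM in bigenic mice 1 to 4 and 10.8, 10.1, 8.15 and 10.7 CPM in control mice 1 to 4. Control libraries 1, 2 and 4 lay above every bigenic library, and control library 3 lay among them. Its log2 fold change of -0.30 ± 0.14 (SE) did not pass (adjusted p = 0.11). Without bigenic library 1 it was -0.41 (adjusted p = 0.0448), as the plot of fitted differences shows.

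**Figure D2:**
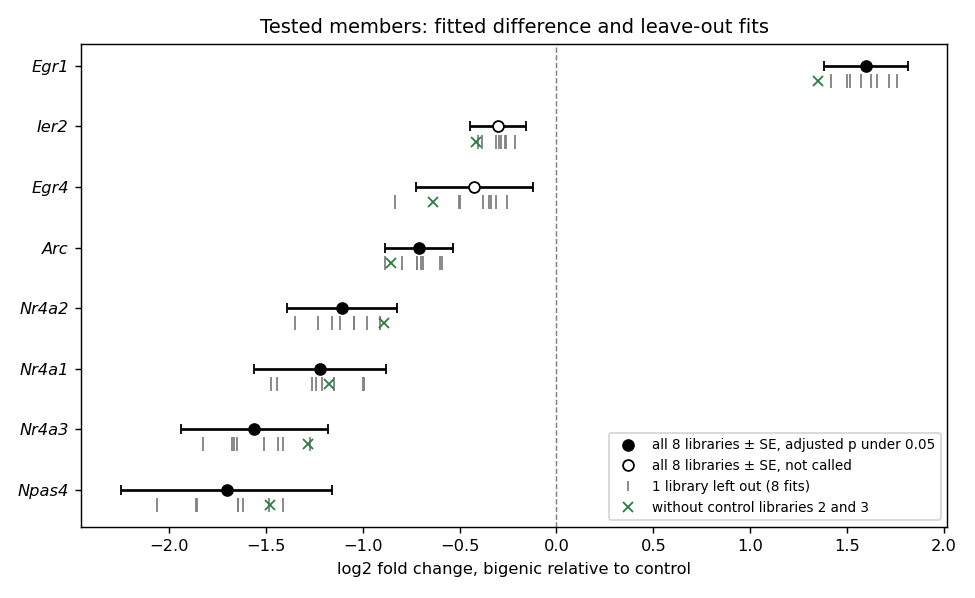
Points show the log2 fold change (bigenic relative to control) of the 8 tested members with its SE, filled where the adjusted p is under 0.05. Grey ticks are the 8 fits with 1 library left out and crosses the fit without control libraries 2 and 3. Each of these fits lies on the same side of 0 as the full fit for all 8 genes.

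Without control libraries 2 and 3, 1 member rose and 1 fell, Egr1 at 1.35 (adjusted p = 0.00805) and Arc at -0.85 (adjusted p = 0.0193). Nr4a1, Nr4a2, Nr4a3 and Npas4 kept their direction at -1.17, -0.89, -1.28 and -1.48, with adjusted p = 0.0755, 0.0782, 0.057 and 0.143 over 2 controls. With Ttr as a covariate, 1 rose and 3 fell, and the calls of Arc (-0.76, adjusted p = 0.0638) and Npas4 (-1.98, adjusted p = 0.0666) were lost at differences no smaller than with all 8 libraries and no covariate. Without control library 4 the Nr4a values were -0.997, -0.98 and -1.44 (adjusted p = 0.0372, 0.0245 and 0.0168). Among the 8 libraries Nr4a1 was highest in control library 4, where Ttr was at the bigenic level, and Nr4a2 and Nr4a3 were highest in control library 2, where Ttr was raised. The part of other tissue in these differences was not tested.

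The cell types that carry these genes in the cerebellum were present in all 8 libraries. Summed over 8 markers each, Purkinje cell transcripts were at 14224 to 15997 CPM in bigenic and 12709 to 14835 CPM in control libraries, with 0 called in either direction by edgeR. Granule cell transcripts were at 4994 to 6506 and 4894 to 5895 CPM, with 2 of 8 higher and 2 lower. In the astrocyte list 3 of 8 were higher and 2 lower, and in the microglia list 0 were higher and 4 lower. Over all genes tested 44.3% were called, so shares of 4 of 8 are near that background. In bulk tissue fewer cells of a type and less RNA per cell cannot be told apart.

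The spread between mice of 1 group was large for most members. Within groups the SD of log2 CPM was 0.647 for Nr4a1, 0.538 for Nr4a2, 0.654 for Nr4a3 and 1.07 for Npas4, wider than in 97.4%, 95.1%, 97.5% and 99.6% of all genes tested. For Nr4a2 the spread was 0.236 among bigenic and 0.723 among control mice. Arc, at 0.311, and Ier2, at 0.216, were steadier. The genes did not all deviate in the same mice. Over the 8 libraries, deviations of Nr4a1, Nr4a2, Nr4a3 and Npas4 correlated with each other at r = 0.589 to 0.967. Those of Arc, Egr4 and Ier2 did so at 0.694 to 0.858. Between these 2 sets r was -0.799 to -0.099. The sets were not planned, and these values are a description with no test. Control library 1 lay below its group mean by 0.89, 1.01, 1.13 and 2.09 for Nr4a1, Nr4a2, Nr4a3 and Npas4, and above it by 0.30, 0.31 and 0.13 for Arc, Egr4 and Ier2. Bigenic library 1 lay 0.88 below for Nr4a1 and 0.89 above for Egr4.

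**Figure D3:**
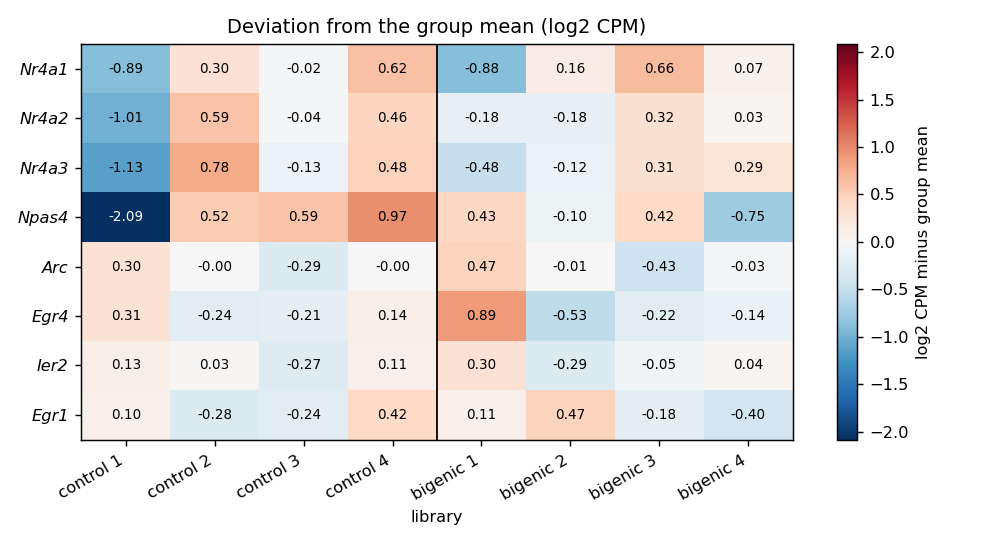
Each cell gives the deviation of 1 gene in 1 library from the mean of its group, in log2 CPM (red above, blue below), for the 8 tested members. In control mouse 1 the 3 Nr4a genes and Npas4 are below their group mean by 0.89 to 2.09, whereas Arc, Egr4, Ier2 and Egr1 are above it.

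Levels can be compared between genes only per length, so the deposited FPKM (fragments scaled to gene length and library total) were used for this. In control cerebellum Arc was the highest at 10.7 ± 1.84 FPKM and Ier2 next at 6.71 ± 0.897 (SD, n = 4), with ranges that did not overlap. Nr4a2 followed at 3.20 ± 1.35, Nr4a1 at 2.56 ± 1.04, Nr4a3 at 1.42 ± 0.719, Egr4 at 1.07 ± 0.215 and Egr1 at 0.925 ± 0.237 FPKM, each overlapping its neighbour in this order. Npas4, at 0.445 ± 0.268 FPKM, lay below all of these means. Egr3 and Egr2 came last, with means of 0.0459 and 0.0270 FPKM. In bigenic cerebellum Egr1 moved from a place behind the Nr4a genes to the third place, at 2.64 ± 0.710 FPKM (SD, n = 4), above Nr4a2 at 1.40 ± 0.222 without overlap.

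Many other immediate early genes were higher in bigenic cerebellum. Of 38 such genes, listed with earlier results of these data known, 36 were tested, 19 rose and 1 fell, and the median log2 fold change was 0.39. The share called in either direction was 55.6%, against 44.3% of all genes tested. Maff, a small Maf transcription factor, averaged 5.36 ± 0.256 CPM in bigenic mice against 0.606 ± 0.0792 CPM in controls (SD, n = 4), a log2 difference of 3.14 ± 0.17 (SE, adjusted p = 1.79e-06). The clock gene Per1 rose by 3.26, the small GTPase gene Arl4d by 1.97 and the kinase gene Sgk1 by 1.87 on the log2 scale. Per1 and Sgk1 are known to be induced by glucocorticoids as well as by activity. Jun, the AP-1 subunit, fell by 0.61 (adjusted p = 0.0358). That call was lost without bigenic library 3 (adjusted p = 0.0592) or 4 (0.0867) and without control library 1 (0.0838), 2 (0.06) or 4 (0.0571).

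Fos, the partner of Jun and itself a marker of activated neurons, was chosen after its values were seen. Bigenic mice 1 to 4 had 3.94, 10.4, 18.5 and 5.37 CPM, and control mice 1 to 4 had 4.70, 26.2, 26.4 and 43.1 CPM. Control library 1 was again at the bigenic level. The log2 fold change was -1.40 and did not pass (adjusted p = 0.141). Without control libraries 2 and 3, 9 of the other immediate early genes rose and 0 fell.

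**Figure D4:**
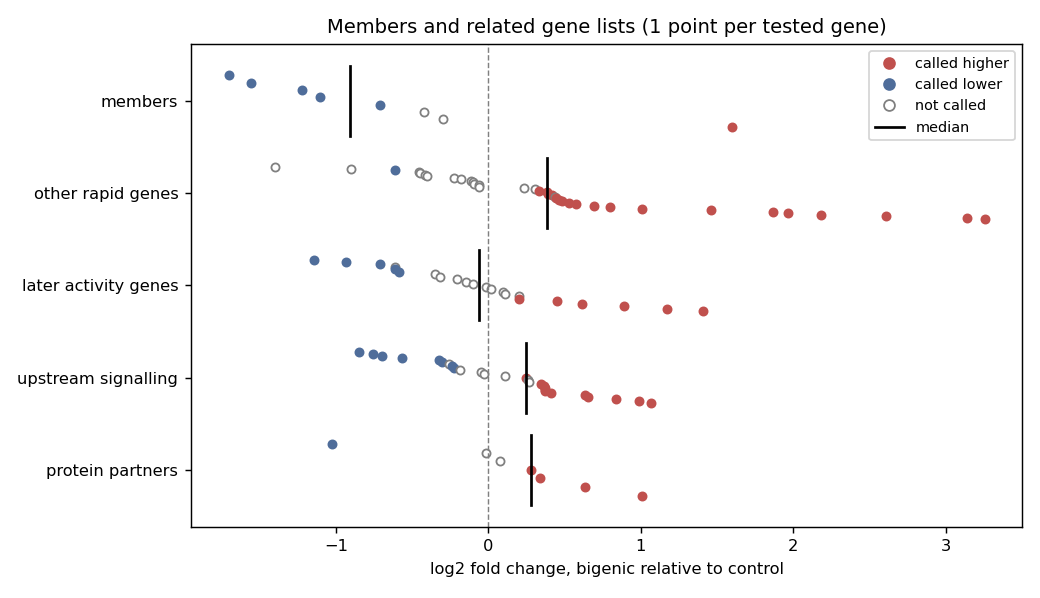
Each point is the log2 fold change (bigenic relative to control) of 1 tested gene in the 10-gene group ("members") and in 4 related lists, red where called higher, blue where called lower and open where not called, with a bar at the list's median. The members have a median of -0.91 and the other rapid genes one of 0.39.

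Genes that activity induces later, whose products act at synapses or are secreted, were divided. Of 22 tested, 6 rose, 5 fell and 11 did not pass, with a median of -0.06. The share called, 50%, was near the 44.3% of all genes tested. Nrn1, neuritin, a surface protein that promotes synapse growth, fell by 1.15 ± 0.08 (SE; adjusted p = 4.83e-06), and the neurotrophin gene Bdnf by 0.71 ± 0.17 (SE; adjusted p = 0.00596). Bigenic mice 1 to 4 had 18.6, 13.3, 21.2 and 21.1 CPM of Bdnf, and control mice 1 to 4 had 22.9, 37.5, 30.2 and 30.6 CPM, without overlap and with control library 1 the lowest control. Without control libraries 2 and 3 it was at -0.53 (adjusted p = 0.0772).

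The signalling regulator Rgs4 fell by 0.58 and the secreted neuropeptide precursor Vgf by 0.61. The call of Rgs4 was lost without bigenic library 3 (adjusted p = 0.0509) or 4 (0.0528), and that of Vgf without bigenic library 4 (0.077) or control library 1 (0.0529), 2 (0.052) or 4 (0.0801). Bhlhe40, a transcriptional repressor that also acts in the clock, rose by 1.41, the synaptic scaffold gene Grasp by 1.17, the kinase gene Pim1 by 0.89 and the kinase gene Plk2 by 0.62. Over the list, 2 genes fell without bigenic library 4 and 3 without control library 2.

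Genes of the signalling that reaches these promoters moved in both directions, with 12 of 27 higher, 8 lower and a median of 0.25. The share called was 74.1%, against 44.3% of all genes tested. Crtc2 and Crtc3, coactivators that calcium and cAMP release to CREB, rose by 1.07 and 0.66, and Elk1, a cofactor of SRF, by 0.84. Mef2a, a calcium-responsive activator, rose by 0.37. Creb1 itself was lower by a small amount, averaging 139.6 ± 8.64 CPM in bigenic mice against 175 ± 12.8 CPM in controls (SD, n = 4), a log2 difference of -0.33 ± 0.08 (SE, adjusted p = 0.00521).

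Crem, which encodes activators and the inducible repressor ICER from the same locus, fell by 0.70 ± 0.10 (SE; adjusted p = 0.00024). In bigenic mice 1 to 4 Crem had 10.2, 10.9, 10.9 and 9.99 CPM, and control mice 1 to 4 had 15.2, 17.3, 18.5 and 17.0 CPM, without overlap. Elk3, a repressor at SRF sites, fell by 0.76 and Rps6ka5, the kinase MSK1 that phosphorylates CREB, by 0.56. Without control libraries 2 and 3, 6 of these genes rose and 3 fell, and Creb1 did not pass (adjusted p = 0.0965).

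Of 7 partners of the member proteins, 4 were higher, 1 was lower and 2 were not called, a share called of 71.4% against 44.3% of all genes tested. With the Ttr covariate, and in each analysis of FPKM, 2 were higher. Nab2, a corepressor that binds Egr proteins and is itself induced by them, rose, as did Egr1. In bigenic mice 1 to 4 it had 98.9, 62.9, 86.1 and 85.2 CPM, and control mice 1 to 4 had 63.8, 56.0, 50.1 and 45.2 CPM. The groups overlapped by 1 library on each side (fitted log2 difference 0.63 ± 0.14, SE; adjusted p = 0.00383). Nab1, its relative, was at -0.01 on the log2 scale (adjusted p = 0.918) and is named though it did not pass, for comparison.

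Rxra, a retinoid receptor with which Nr4a1 and Nr4a2 pair, rose by 1.01 ± 0.11 (SE; adjusted p = 6.95e-05), from 21.1 ± 3.24 to 42.4 ± 2.71 CPM (SD, n = 4). Arnt2, the partner of Npas4, rose by 0.28 ± 0.07 (SE; adjusted p = 0.0062). Rxrb rose by 0.34 and Rxrg fell by 1.03, each weakly. The call of Rxrb was lost without bigenic library 1 (adjusted p = 0.0726) or 4 (0.0749) or control library 2 (0.067), 3 (0.0743) or 4 (0.0658), and that of Rxrg without bigenic library 1 (0.058), 2 (0.0697), 3 (0.0773) or 4 (0.0715) or control library 3 (0.0515) or 4 (0.137). Without control libraries 2 and 3, 2 partners rose, and Arnt2 (adjusted p = 0.0777) was among those that did not pass.

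Genes whose level followed the members' mean were sought over the 8 libraries. They were those with the highest correlation of log2 CPM with the mean of the 8 tested members after each was standardised. With the group difference included, Egr1 ran opposite to the other tested members, from r = -0.783 with Nr4a3 to -0.434 with Egr4. The mean therefore does not stand for each member. For deviations from the group mean, r of Egr1 with the other tested members was -0.277 to 0.365, with a median of 0.021. The 6 highest among genes outside the group were Ccdc103 (r = 0.983), Immp1l (0.98), Fam72a (0.969), Glrx3 (0.968), Aamdc (0.967) and the row named Mirlet7f-1 (0.958). The points share library, depth and the group difference, and the values were picked as the highest of all genes, so they are a description with no test. The members' mean was at most -0.125 in bigenic libraries and at least 0.0114 in controls (standardised units). Genes chosen to follow it were thus likely to be lower in bigenic mice, and their falls and adjusted p are no separate evidence. Ccdc103 fell 2.09-fold, from 1.23 ± 0.391 to 0.587 ± 0.141 CPM (SD, n = 4; adjusted p = 0.0103). Fam72a did not pass (adjusted p = 0.0704), and the other 4 fell by 0.33 to 0.52 on the log2 scale. The call of Mirlet7f-1 was lost without bigenic library 2 (adjusted p = 0.0535) or 3 (0.0522) or control library 2 (0.0561) or 4 (0.081), and that of Aamdc without control library 2 (0.0524) or 4 (0.069). Immp1l (adjusted p = 0.0628), Glrx3 (0.0638), Aamdc (0.124) and Mirlet7f-1 (0.0763) did not pass without control libraries 2 and 3.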

How the data were processed

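RNA sequencing of whole cerebellum from 4 bigenic and 4 control mice was used, each library from its own mouse per the labels. The authors deposited raw read counts per gene, whole numbers that were not normalised, and FPKM, which equal the counts divided by a gene length and the column total. STAR, HTSeq and mm10 appear in the submitters' processing notes, and their versions are not given in the sources used here. The labels disagree on extraction and library kit, and whether counting used strand is not given. In GENCODE M21 no exon of another gene overlaps those of the 10 members. Counted reads ranged from 35208460 to 38293012 per library.

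For the counts, edgeR 4.0.16 under R 4.3.3 was used: filterByExpr left 15186 genes, libraries were scaled by TMM, and the robust quasi-likelihood F test compared the groups, with Benjamini-Hochberg adjustment over all genes tested and a threshold of 0.05. SE is that of the fit. Log2 CPM used a prior count of 2. Alternatives were other scaling, no filter, DESeq2 1.42.0, limma 3.58.1 on log2(FPKM + 1) and log2(FPKM + 0.1), a replicate block, a Ttr covariate and left-out libraries. The fit was tested on simulated data with folds set on 200 genes. It called 60% of the genes set at 1.5-fold and 84% of those set at 2-fold. Of its calls 7.1% were false.

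The members and lists were chosen with earlier results of these data known. All members are named, with up to 4 called genes per direction with the smallest p from each other list and the 6 genes most correlated with the members' mean.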

Additional observations from a re-analysis of the deposited data

Results flagged for a closer look

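Egr3 in control library 4 stood at 0.598 CPM, or 24 reads, far above the other 3 controls at 0.0269 to 0.0513 CPM, a gap of 0.957 of the group's range. Of 20 groups of 4 libraries examined, 2 for each of the 10 genes, this was the only sample so far from the rest, and chance marks about 1 in 20 groups. Control library 4 is also the library with Slc17a6 at 110.4 CPM, and whether the Egr3 reads share that source was not tested.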

How the results depend on the processing

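None of the 8 tested members changed direction in 18 alternatives each. Of these 144 values, 126 kept their side of the threshold, 14 lost the call (10 of them for Npas4) and 4 gained it. With 1 library left out, 1 member rose in every fit and 4 to 7 fell. Without control libraries 2 and 3, 1 member fell, as did 3 with the Ttr covariate, the cause not tested. Over all genes these settings gave 1619 higher and 1775 lower, and 1270 and 1665; leaving out 1 library gave 2544 to 3588 higher and 2737 to 3823 lower. On log2(FPKM + 1), which understates low genes, Egr1 was at 0.91.

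Deviations of same-numbered mice 1 to 4 correlated at 0.329, 0.0239, 0.166 and 0.0625, so hardly at all for mice 2 and 4. Of the 8 libraries 6 correlated best with their own number. The main fit had no block because the numbers are not said to mark a shared litter or day. Whether they mark pairs was not tested. With the replicate block 3648 genes rose and 3795 fell, among the members 1 rose and 4 fell, Npas4 did not pass (adjusted p = 0.0683), and 3 of the other immediate early genes fell.

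For the other immediate early genes the main count was 19 higher and 1 lower. It was 2 lower with library size alone, 0 lower without the filter, 12 higher and 3 lower on log2(FPKM + 1), 3 lower on log2(FPKM + 0.1), 11 higher on log2(FPKM + 1) without a filter, 9 and 0 without control libraries 2 and 3, and 8 and 0 with the Ttr covariate; leaving out 1 library gave 14 to 18 and 0 to 2. For later genes it was 3 lower without control libraries 2 and 3, and 3 higher with the Ttr covariate; leaving out 1 library gave 4 to 6 higher and 2 to 6 lower. For signalling genes it was 7 higher with library size alone and in each FPKM setting, 6 and 3 without control libraries 2 and 3, and 6 and 2 with the Ttr covariate; leaving out 1 library gave 8 to 12 and 6 to 8. For partners it was 2 higher in each FPKM setting, without control libraries 2 and 3 and with the Ttr covariate, and 0 lower on log2(FPKM + 1) with or without a filter; leaving out 1 library gave 3 to 4 and 0 to 1. Fewer libraries leave less power, and Egr2, Egr3 and Npas4 rest on few reads. The cause of the other shifts was not tested.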
